A study of Mus musculus with 2 samples.

Results

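The barcodes described here are the few in the lung ILC2 libraries that held RNA of Il17a, or of the lymphocyte genes Gzma, Nkg7 and Ms4a4b. They were chosen from the counts. A barcode was kept if it had at least 500 detected genes and at most 10% of its unique molecular identifiers (UMIs, each standing for 1 captured RNA molecule) from mitochondrial genes. A kept barcode was then a member if it had at least 1 UMI of Il17a, or at least 1 UMI of Gzma, or at least 1 UMI of both Nkg7 and Ms4a4b. There were 127 members among 15481 kept barcodes, 57 of 8394 in the WT library and 70 of 7087 in the Pac1-/- library.

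The study used droplet-based scRNA-Seq to ask how PAC1, a nuclear dual-specificity phosphatase encoded by Dusp2, shapes lung ILC2s. Each of the 2 libraries held lung cells pooled from 4 to 5 mice of 6 to 8 weeks on the C57BL/6J background, either WT or carrying a germline Pac1 knockout in every tissue, and about 13000 cells of over 98% viability were loaded for each. Most T cells, B cells, NK cells, myeloid and erythroid cells were removed with magnetic beads before Lineage-CD90.2+ST2+Sca-1+ cells were sorted, and no stimulus was given. With 1 library per genotype, genotype and library cannot be told apart, no difference has a replicate check, and no test was made. Every interval below is a 95% exact interval that covers counting error only, and where a count was 0, the limit given is the share or level that 3 counts would make.

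ILC2s, ILC3s and NK cells are innate lymphocytes without rearranged antigen receptors. ILC2s depend on the transcription factor GATA3, carry the IL-33 receptor ST2 (Il1rl1) and make IL-5, IL-13 and amphiregulin, whereas IL-17A and IL-22 are the signature cytokines of ILC3s, Th17 cells and γδ T cells. Cytotoxic lymphocytes such as NK cells hold granzymes and perforin in granules, of which granzyme A (Gzma) and the granule membrane protein NKG7 are components, and Ms4a4b encodes a tetraspan surface protein known from T and NK cells.

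The targeted gene followed the labels. Dusp2 (chr2:127336159-127338376, plus strand) gave 1419 UMIs in 757 kept WT barcodes and 5 UMIs in 5 kept Pac1-/- barcodes. Among members, 11 of 57 WT barcodes held it, at 36.4 CPM (the UMIs of a gene per 1000000 UMIs summed over the barcodes of a set) against 25.9 CPM in the other kept WT barcodes, and none of the 70 Pac1-/- members held any.

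Members made up 0.679% (0.515% to 0.879%) of the kept WT barcodes and 0.988% (0.771% to 1.25%) of the kept Pac1-/- barcodes. The routes into the set differed between the libraries. Il17a brought in 53 WT barcodes (0.631%, 0.473% to 0.825%) and 35 Pac1-/- barcodes (0.494%, 0.344% to 0.686%). Gzma brought in 3 WT and 13 Pac1-/- barcodes, and Nkg7 with Ms4a4b brought in 3 WT and 32 Pac1-/- barcodes. Barcodes with Gzma, or with Nkg7 and Ms4a4b, are called Gzma/Nkg7 barcodes below, and there were 4 in the WT library (0.0477%, 0.0130% to 0.122%) and 41 in the Pac1-/- library (0.579%, 0.415% to 0.784%). WT members were therefore nearly all Il17a barcodes, and Pac1-/- members were a mixture. No WT barcode came in by Il17a and by another route, and 6 Pac1-/- barcodes did, 1 with Gzma and 5 with Nkg7 and Ms4a4b.

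Members were deeper than the other kept barcodes. The median was 9708 UMIs in WT members against 4179 in the others, and 8996.5 against 5558 in the Pac1-/- library. Since a deeper barcode has more chances to show 1 UMI of a rare gene, each kept barcode was also thinned at random to 1500 UMIs, for which 760 WT barcodes and 523 from the Pac1-/- library were too shallow. In thinned barcodes the Il17a route held 15 of 7634 (0.196%, 0.110% to 0.324%) in the WT library and 10 of 6564 (0.152%, 0.0731% to 0.280%) in the Pac1-/- library. The Gzma/Nkg7 routes held 2 (0.0262%, 0.00317% to 0.0946%) and 16 (0.244%, 0.139% to 0.396%). The order of the libraries was the same at equal depth for both kinds of route. For Il17a the intervals overlapped widely, so these counts do not order the libraries. Predicted doublets made up 9 of 57 WT members (15.8%, against 8.65% of the others) and 3 of 70 Pac1-/- members (4.29%, against 7.62%). Without predicted doublets members were 0.626% of the WT and 1.02% of the Pac1-/- barcodes.

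Barcodes of other cell types gave a limited view of free RNA. Il17a and Gzma were in none of the 10 WT and 22 Pac1-/- barcodes with B cell genes (median 4297.5 and 4561 UMIs), which allows shares of up to 30% and 13.6%, and in none of the 8 and 15 barcodes with stromal genes (median 1206.5 and 1848 UMIs). Nkg7 was in 1 of the 10 WT barcodes with B cell genes and Ms4a4b in 2 of the 22 Pac1-/- ones. In these sets Il17a and Gzma were not detectable, and the sets were too small to give a share as low as that of the members. The libraries shared 29 barcode sequences, 15 of them kept in both, and 1 of these was a WT member and none a Pac1-/- member.

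Il17a lies at chr1:20730905-20734496 on the plus strand, and its paralogue Il17f, which encodes a cytokine that pairs with IL-17A, lies 42.6 kb away at chr1:20777146-20790617 on the minus strand (GRCm38, GENCODE vM21). The 250 bases before the RefSeq start of each gene (GRCm38.p6) are shown because the 2 genes are neighbours and often expressed together in type 17 lymphocytes, and the barcodes below could be checked for that. They are chr1:20730655-20730904 for Il17a and chr1:20784271-20784520 for Il17f, each printed 5′ to 3′ on the strand of its gene. Capitals mark AGGTCA, the core element of nuclear receptors such as RORα, and TGANTCA, the AP-1 element bound by dimers that can include BATF, both searched on both strands.

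Il17a: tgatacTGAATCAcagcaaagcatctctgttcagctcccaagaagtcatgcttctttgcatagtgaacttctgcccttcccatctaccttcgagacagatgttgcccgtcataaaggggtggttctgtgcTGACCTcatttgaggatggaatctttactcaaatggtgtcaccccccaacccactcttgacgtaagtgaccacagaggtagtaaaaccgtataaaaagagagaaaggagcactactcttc

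Il17f: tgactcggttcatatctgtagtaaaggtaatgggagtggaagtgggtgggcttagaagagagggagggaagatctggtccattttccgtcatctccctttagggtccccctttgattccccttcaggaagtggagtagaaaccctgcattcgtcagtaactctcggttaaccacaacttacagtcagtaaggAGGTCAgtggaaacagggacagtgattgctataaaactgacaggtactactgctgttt

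The Il17a window held TGAATCA at -244 to -238 and AGGTCA on the opposite strand, read as TGACCT, at -120 to -115. The Il17f window held AGGTCA at -58 to -53. Of 32536 promoter windows of the same kind and length, 14.0% held AGGTCA and 6.73% held TGANTCA, and a match describes letters, not binding.

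Il17a itself was unevenly spread over the barcodes. In the WT library 189 Il17a UMIs (3.46 CPM over all kept barcodes) lay in 53 barcodes, of which 28 had 1 UMI, 11 had 2 to 4 and 14 had 5 or more, and the highest barcodes had 19 and 18. In the Pac1-/- library 426 Il17a UMIs (7.30 CPM) lay in 35 barcodes, of which 12 had 1 UMI, 9 had 2 to 4 and 14 had 5 or more, and the highest had 144 and 44. Fewer Pac1-/- barcodes thus held more Il17a. In that library 8 barcodes had 20 UMIs or more and no WT barcode did. The top 8 barcodes held 81.9% of the Pac1-/- Il17a UMIs and 50.8% of the WT ones.

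**Figure D1:**
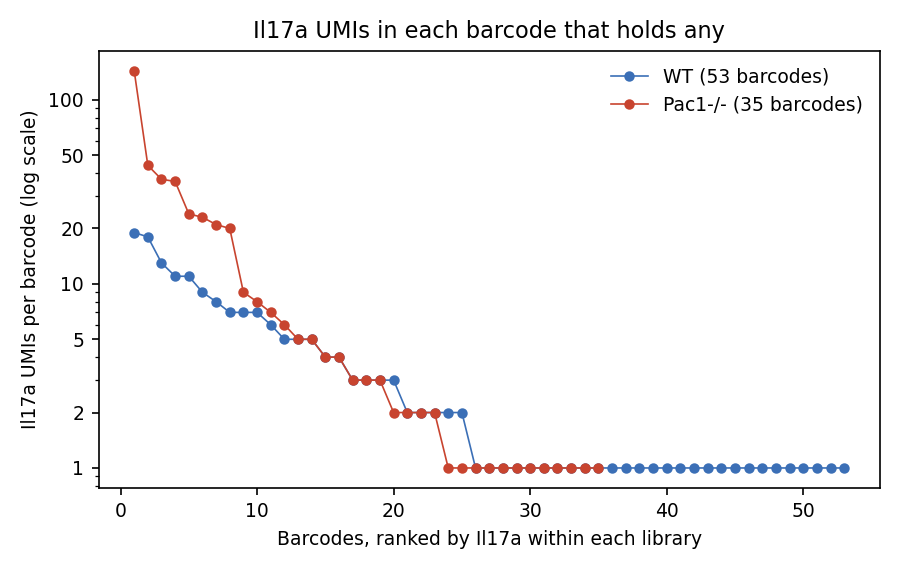
Il17a UMIs in each barcode with any (y axis, log scale), with the barcodes of each library ranked from high to low (x axis); each point is 1 barcode, and lines join the points of 1 library. The 8 highest Pac1-/- barcodes have 20 to 144 UMIs, above the highest WT barcode with 19.

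The summed level of Il17a was 1.08 higher on the log2 scale in the Pac1-/- library (0.83 to 1.33), and 1 barcode held 33.8% of its Il17a. Without the highest barcode of each library, an alternative chosen after the data were seen, 170 WT and 282 Pac1-/- UMIs remained and the log2 ratio was 0.63 (0.35 to 0.92). The highest barcode, with 144 Il17a UMIs of 8251, also held 10 UMIs of Gata3, 16 of Il1rl1, 27 of Il5, 18 of Il13 and 65 of Areg. It carried 12 of 20 listed ILC2 genes and none of the 10 NK cell genes. It also held 1 UMI each of Il22 and of the T cell genes Trac, Cd3g and Cd28.

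Il17a barcodes carried the genes that define ILC2s. Gata3 was at 1183 CPM in the WT Il17a barcodes (49 of 53 barcodes) against 1207 CPM in the other kept barcodes, and at 1279 CPM in the Pac1-/- ones (35 of 35) against 1033 CPM. Il1rl1 was at 1046 CPM (52 of 53) against 1114 CPM, and at 1031 CPM (35 of 35) against 993 CPM. In the shallower barcodes with B cell genes, Gata3 was in 5 of 10 WT and 9 of 22 Pac1-/- barcodes, and Il1rl1 in 5 of 10 and 11 of 22. The median depth was 11190 and 8754 UMIs in the Il17a barcodes, and the part of depth in these shares was not tested. Of the core genes Gata3, Il1rl1, Il7r (the IL-7 receptor chain) and Rora, at least 3 were found in 51 of 53 WT barcodes (96.2%) and in 35 of 35 Pac1-/- barcodes, against 93.0% and 93.9% of the others. Il7r was at 775 against 813 CPM and at 959 against 1083 CPM. Rora, a nuclear receptor gene that ILC2s need for their development, was at 2342 against 2264 CPM in the WT library and at 2322 against 1678 CPM in the Pac1-/- library.

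The type 2 cytokine Il13 was higher in the Il17a barcodes of both libraries. It gave 284 UMIs in 31 of 53 WT Il17a barcodes, at 377 CPM (335 to 424) against 188 CPM, and 194 UMIs in 23 of 35 Pac1-/- Il17a barcodes, at 372 CPM (321 to 428) against 145 CPM. The log2 ratios were 1.01 (0.83 to 1.18) and 1.36 (1.15 to 1.56). Without the 1 barcode that held 60 of the WT UMIs the WT ratio was 0.67, counted with a prior of 10 CPM as explained below. After thinning, Il13 was in 14 of 50 WT Il17a barcodes (against 13.8% of the others) and in 8 of 35 Pac1-/- ones (against 9.44%). Areg, which encodes the tissue-repair growth factor amphiregulin, was at 1096 against 780 CPM and at 1058 against 790 CPM.

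In the WT library Il13 and Areg were higher in barcodes with more Il17a. The 28 WT barcodes with 1 Il17a UMI had 181 CPM (139 to 232) of Il13 and 642 CPM (560 to 733) of Areg, near or below the levels of the other barcodes. The 14 with 5 or more had 668 CPM (570 to 778) and 1679 CPM (1522 to 1848), and 60 of their 166 Il13 UMIs lay in 1 barcode. Areg was uneven too, as 2 of these barcodes held 114 and 103 UMIs and the next highest held 56. In the Pac1-/- library the 12 barcodes with 1 UMI had 277 CPM (202 to 371) of Il13 and the 14 with 5 or more had 410 CPM (330 to 502). Neither Il13 nor Areg rose steadily there over the classes of 1, 2 to 4 and 5 or more Il17a UMIs. T cell-defining genes also varied with Il17a. At least 1 of 6 was in 6 of 28 WT barcodes with 1 Il17a UMI (21.4%), 1 of 11 with 2 to 4 (9.09%) and 6 of 14 with 5 or more (42.9%), and in 1 of 12 (8.33%), 1 of 9 (11.1%) and 3 of 14 (21.4%) Pac1-/- barcodes. No barcode with 5 or more Il17a UMIs held 2 of them, and Cd3e gave 9 UMIs in 2 of the 14 WT barcodes, 7 of them in 1.

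Il5 and Icos were higher in the Il17a barcodes of the Pac1-/- library. Il5, the eosinophil growth factor, was at 817 CPM (741 to 898; 26 of 35 barcodes) against 402 CPM there, and at 673 CPM (615 to 734; 42 of 53) against 719 CPM in the WT library. Icos, a costimulatory receptor of ILC2s and T cells, was at 554 CPM (492 to 622; 31 of 35) against 218 CPM, and at 268 CPM (233 to 308; 31 of 53) against 212 CPM in the WT library. The difference between the libraries in these ratios was not tested. Calca, the gene of the neuropeptide CGRP, was at 665 against 349 CPM in the Pac1-/- library and at 452 against 494 CPM in the WT library.

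ILC3 genes gave a mixed picture in the Il17a barcodes. Several of the list were at similar levels in both sets. Ltb (lymphotoxin β) was at 340 against 385 CPM in the WT library and at 723 against 719 CPM in the Pac1-/- library, Kit at 428 against 428 CPM and at 219 against 210 CPM, and the transcription factor gene Maf at 185 against 188 CPM and at 255 against 221 CPM. Tmem176a and Tmem176b were at 179 and 209 CPM against 190 and 227 CPM in the WT library, and at 305 and 276 CPM against 344 and 344 CPM in the Pac1-/- library. Of 5 genes that define ILC3s more narrowly (Il23r, Il22, Il17f, Ccr6 and Il1r1), at least 1 was in 3 of 53 WT Il17a barcodes (5.66%) and 5 of 35 Pac1-/- ones (14.3%), against 0.420% and 0.456% of the others, and no Il17a barcode held 2 of them. Il17a barcodes were also deeper, and the part of depth in these shares was not tested. Il23r, which encodes the receptor for IL-23, Ccr6 and Il1r1 had 0 UMIs in the Il17a barcodes of both libraries, where a count of 0 allows up to 3.99 CPM (WT) and 5.75 CPM (Pac1-/-). Il22 had 0 UMIs in the WT Il17a barcodes and 4 in 3 of the Pac1-/- ones. Over all kept barcodes Il22 gave 2 UMIs in 1 WT barcode and 6 UMIs in 5 Pac1-/- barcodes, too few to compare the libraries. The 3 Pac1-/- barcodes with both genes were 8.57% of the Il17a barcodes, against 1 of 7017 other kept barcodes with Il22 (0.0143%). The barcode with the most Il22, at 2 UMIs, held 36 of Il17a. These counts are small, and the part of depth in them was not tested.

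Il17f was found more often in Il17a barcodes than in the others, although most barcodes with Il17f held no Il17a. It gave 105 UMIs in 28 kept WT barcodes, of which 3 (10.7%) also held Il17a, and these 3 were 5.66% of the Il17a barcodes, against 25 of 8337 other kept barcodes (0.300%). It gave 40 UMIs in 13 kept Pac1-/- barcodes, of which 2 (15.4%) also held Il17a, 5.71% of the Il17a barcodes, against 9 of 7017 others (0.128%). The barcodes with the most Il17f, 17 UMIs in the WT and 14 in the Pac1-/- library, held no Il17a. In the Pac1-/- Il17a barcodes 9 of the 10 Il17f UMIs came from 1 barcode, and in the WT ones 5 of 7 came from 1 predicted doublet of 26284 UMIs with 3 T cell-defining genes. The level of Il17f over all kept barcodes was lower in the Pac1-/- library, with a log2 ratio of -1.49 (-2.05 to -0.95), whereas that of Il17a was higher. Batf, an AP-1 factor gene of type 17 cells, was at 37.2 against 29.3 CPM in the WT Il17a barcodes. In the Pac1-/- ones it was at 69.0 against 29.6 CPM, and at 34.8 CPM in the 29 that came in by no route other than Il17a.

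T cell and NK cell genes differed from gene to gene in the Il17a barcodes. Several were abundant in both sets. The T cell receptor β constant genes Trbc1 and Trbc2, which are near-identical so that their counts are uncertain, were at 324 and 229 CPM against 292 and 261 CPM in the WT library and at 424 and 410 CPM against 463 and 384 CPM in the Pac1-/- library. Lat, an adaptor of receptor signalling, was at 104 against 103 CPM and at 138 against 122 CPM. Bcl11b, a transcription factor gene of T cells and ILC2s, was at 247 against 208 CPM and at 253 against 312 CPM. Il2rb, a receptor chain for IL-2 and IL-15, was at 198 against 188 CPM in the WT library and at 209 against 102 CPM in the Pac1-/- library. Genes that define T or NK cells more narrowly were at 0 or in fewer barcodes. The coreceptor genes Cd4, Cd8a and Cd8b1 had 0 UMIs in the Il17a barcodes of both libraries, as did the NK cell genes Ncr1, Klrb1c, Klre1, Prf1 (perforin), Fcer1g and Tyrobp. Cd3e, a chain of the T cell receptor complex, gave 17 UMIs in 6 of 53 WT barcodes (22.6 against 10.3 CPM) and 1 UMI in the Pac1-/- ones. At least 1 of 6 T cell-defining genes was found in 13 of 53 Il17a barcodes of the WT library (24.5%) and 5 of 35 of the Pac1-/- library (14.3%), against 9.84% and 6.17% of the others, and at least 2 were in 2 WT barcodes and 1 Pac1-/- barcode. Members were also deeper, and the part of depth in these shares was not tested. Cd3g, which ILC2s can transcribe without a receptor, was at 105 against 119 CPM and at 61.3 against 93.4 CPM, Trac gave 8 and 3 UMIs, and the γδ constant gene Trdc gave 4 and 2 UMIs. Trdv4, a δ variable segment, was at 470 against 372 CPM and at 186 against 103 CPM.

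**Figure D2:**
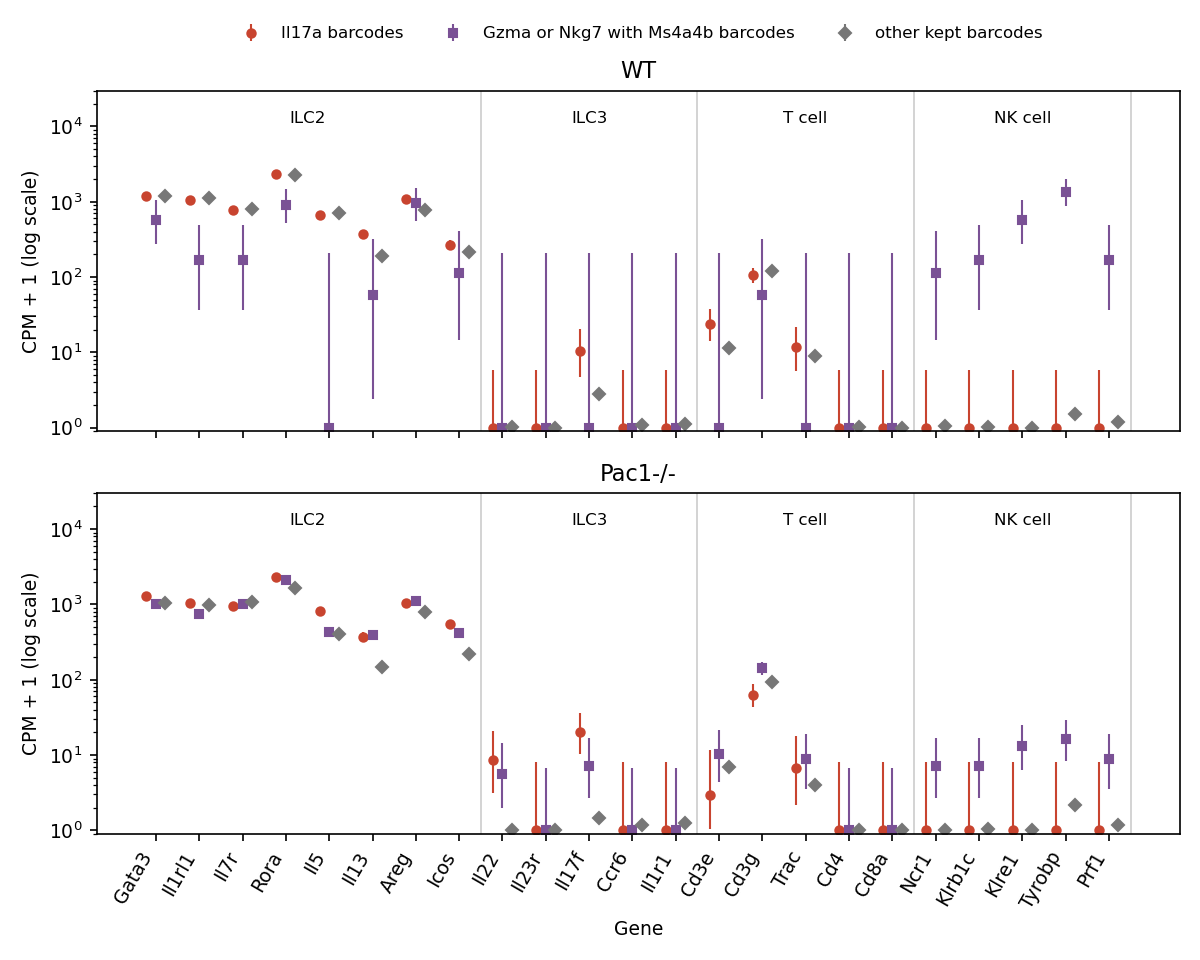
CPM + 1 (y axis, log scale) of ILC2, ILC3, T cell and NK cell genes (x axis) in Il17a barcodes (circles), Gzma/Nkg7 barcodes (squares) and other kept barcodes (diamonds) of the WT library (top) and the Pac1-/- library (bottom); bars are 95% exact Poisson intervals. Circles lie near diamonds for Gata3 and Il1rl1 and at 0 CPM for Il23r, Cd4 and Prf1, and the NK cell genes of the Gzma/Nkg7 barcodes come mostly from 2 of 4 WT and 2 of 41 Pac1-/- barcodes.

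Across 12323 genes with at least 20 UMIs in each library, members were compared with the other kept barcodes by log2 CPM ratios with 10 CPM added to both sides. The rule itself made this contrast, so the counts are a description. Over all members 1 gene was at least 2-fold higher in both libraries (0.00811%), Fcer1g, an adaptor of Fc and NK cell receptors, and 3 were at least 2-fold lower (0.0243%), namely the haemoglobin genes Hbb-bs and Hba-a1 and the club cell gene Scgb1a1. Hbb-bs was at 1.30 CPM in WT members against 33.9 CPM, and at 9.09 against 104 CPM in the Pac1-/- library. Members were deeper than the others, and the part of depth in these lower levels was not tested. Fcer1g rested on 10 UMIs in 2 WT barcodes and 17 UMIs in 5 Pac1-/- barcodes, and without the barcodes with NK cell genes described below no gene was 2-fold higher (0%) and the 3 lower genes were as before (0.0243%). Other high-ranked genes, each under 2-fold in the weaker library, were Ifi27l2a, Il13, Car2 and Tyrobp. None of 19 ILC2, 11 ILC3, 7 γδ T cell or 14 T cell genes measured was 2-fold higher or lower in both libraries, and of 11 NK cell and ILC1 genes Fcer1g was. Of the lists for other cells and states, none of 4 B cell, 2 myeloid, 2 mast cell and basophil, 3 stromal, 4 endothelial, 9 interferon response, 7 circulating lymphocyte, 6 tissue residency and 7 cell cycle genes met the rule, whereas 2 of 4 erythroid and 1 of 2 epithelial genes were lower.

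For the Il17a barcodes alone no gene was 2-fold higher in both libraries (0%) and 3 were lower (0.0243%), again Hbb-bs, Scgb1a1 and Hba-a1. The part of depth in these lower levels was not tested here either. In the WT library taken alone, 3 genes were 2-fold higher (0.0243%) and 5 lower (0.0406%), and in the Pac1-/- library taken alone, 76 were higher (0.617%) and 49 lower (0.398%). The 76 included 3 of 19 ILC2 genes (Il5, Il13 and Icos), 1 of 11 ILC3 genes (Il17f), 1 of 14 T cell genes (Tcf7), 1 of 11 NK cell genes (Klrk1, the activating receptor NKG2D), 2 of 9 interferon response genes, 1 of 7 circulating lymphocyte genes, 5 of 7 cell cycle genes, 1 of 4 B cell genes (Cd79b, 12 UMIs in 8 of 35 barcodes) and 1 of 4 endothelial genes (Pecam1, 50 UMIs in 15 of 35). In the WT library none of these lists had a 2-fold higher member. The median log2 ratio of the ILC2 list was -0.03 in the WT and 0.21 in the Pac1-/- Il17a barcodes, beside -0.04 and -0.06 over all genes tested.

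Genes with the largest ratios in the Pac1-/- Il17a barcodes belonged to several groups. Ifi27l2a, an interferon-induced gene, was at 148 CPM in 9 of 35 barcodes against 7.46 CPM, and at 12.0 against 1.06 CPM in the WT library. Irf4, a transcription factor gene of activated lymphocytes, was at 84.4 CPM (61.3 to 113) in 15 of 35 barcodes against 8.63 CPM, and at 37.2 CPM in 17 of 53 against 20.1 CPM in the WT library. The WT level of Ifi27l2a came from 9 UMIs, 8 of them in 1 barcode. Irf4 was spread over more barcodes. It had no UMI left in the Pac1-/- Il17a barcodes that met the rule after thinning. The log2 ratio of Irf4 there, -0.70, comes from the prior and does not show a lower level. Lmnb1 (lamin B1) was at 151 CPM in 22 of 35 against 27.4 CPM, and Ctla4, an inhibitory receptor, at 42.2 CPM in 6 of 35 against 1.31 CPM. Klrk1 was at 44.1 CPM in 12 of 35 against 8.53 CPM, and Tcf7, the gene of the lymphocyte factor TCF-1, at 61.3 CPM in 13 of 35 against 19.3 CPM.

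Several of the high ratios rested on 1 barcode. Of the Pac1-/- Il17a barcodes, 1 held 16 of the 23 Mki67 UMIs and 30 of the 33 Stmn1 UMIs, both genes of dividing cells, and had 1 UMI of Il17a. Without the highest barcode of each gene the log2 ratio with a prior of 10 CPM moved from 1.86 to 0.67 for Mki67 and from 2.19 to -0.02 for Stmn1. It moved from 2.27 to 0.51 for Rsad2 (viperin), from 1.82 to 0.56 for Plac8, from 1.68 to 0.40 for Adm and from 1.48 to 0.21 for Il17f, and from 1.01 to 0.88 for Il5. Dusp4, a MAPK phosphatase of the same family as PAC1, was spread more evenly, in 19 of 53 WT barcodes at 45.2 against 20.8 CPM and in 13 of 35 Pac1-/- barcodes at 47.9 against 9.61 CPM. Bcl2a1b, a survival gene, was at 89.0 against 47.1 CPM and at 88.2 against 25.9 CPM. Near-identical Bcl2a1 copies share reads, so its count is uncertain.

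The Gzma/Nkg7 barcodes fell into unlike kinds. Barcodes with at least 3 of 10 NK cell genes are called barcodes with NK cell genes throughout. They numbered 2 in each library, all of them members, and this split was chosen after the values were seen. The 2 WT ones had 30 and 11 UMIs of Gzma, 10 and 14 of Tyrobp, an adaptor of NK cell receptors, and 6 and 4 of Klre1, an NK cell lectin receptor. They had 1 UMI of Gata3 together and none of Il1rl1 or Il7r, and 7.22 and 5.45 UMIs per 10000 from the 20 ILC2 genes. These 2 barcodes held NK cell genes and hardly any ILC2 genes, although the sort selected ST2. Of the Pac1-/- pair, one had 52 UMIs of Gzma, 74 of Ccl5, 9 of Tyrobp and 6 of Klre1 together with 7 of Il1rl1 and 2 of Gata3, and the other had 8 of Gzma and 16 of Ccl5 with none of Gata3 or Il1rl1. The first held 86.5 UMIs per 10000 from ILC2 genes beside 48.8 from NK cell genes. It was not a predicted doublet, and whether 1 or 2 cells gave it was not tested.

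**Figure D3:**
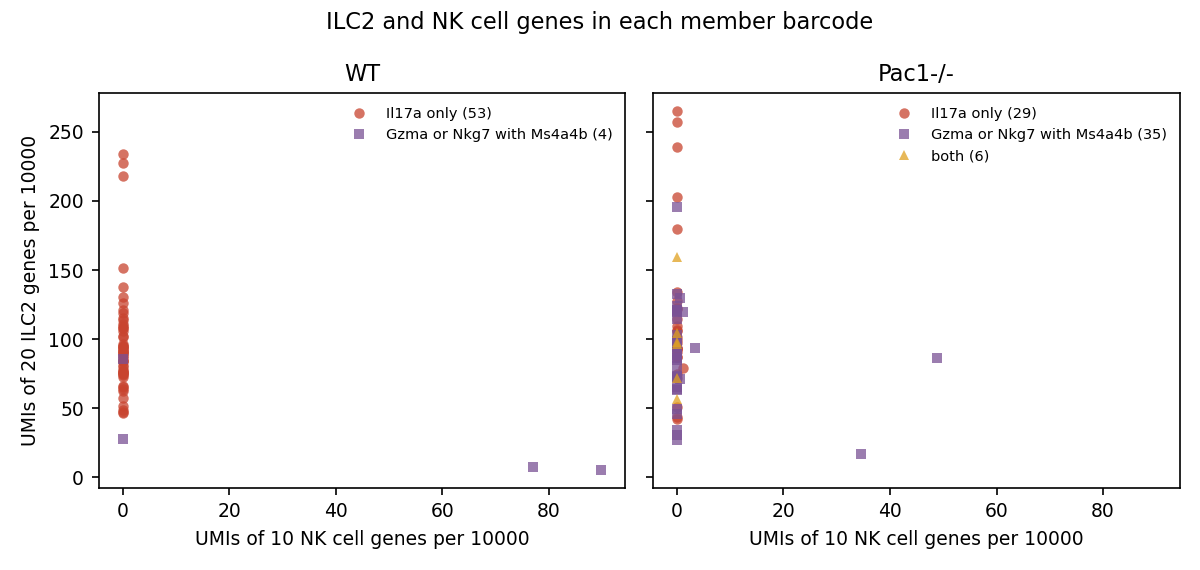
UMIs per 10000 from 20 ILC2 genes (y axis) and from 10 NK cell genes (x axis) in each member, with 1 point per barcode, for the WT library (left) and the Pac1-/- library (right); symbols give the route into the set. The 2 barcodes with at least 3 of 10 NK cell genes in each library stand apart, as their choice by these genes fixes. They lie at 77.0 and 89.9 NK cell UMIs per 10000 in the WT library and at 48.8 and 34.6 in the Pac1-/- one. The other members lie on or near the y axis, at no more than 3.46.

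Few WT barcodes remained beside them. One had 1 UMI of Gzma with 9 of Gata3 and 3 of Il1rl1, and the other had 1 UMI each of Nkg7 and Ms4a4b with none of Gata3. For all 4 WT Gzma/Nkg7 barcodes 12.3% of the genes tested were 2-fold higher and 28.9% lower in the WT library taken alone, from 17662 UMIs in all. In both libraries 56 genes were 2-fold higher (0.454%) and 29 lower (0.235%), and 6 of 11 NK cell genes were among the higher ones. Without the 2 barcodes with NK cell genes in each library, 31 genes were higher (0.252%) and 37 were lower (0.3%), with 2 barcodes and 9836 UMIs left on the WT side. No NK cell gene was among the 31, which the way the set was made largely fixes.

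The other 39 Pac1-/- Gzma/Nkg7 barcodes carried ILC2 genes. Gata3 was in 39 of 39 at 1044 CPM (966 to 1127) against 1033 CPM in the other kept Pac1-/- barcodes, and Il7r in 39 of 39 at 1026 against 1083 CPM. Il1rl1 was in 37 of 39 at 757 CPM (691 to 828) against 993 CPM. Klrg1, an inhibitory lectin receptor of mature and inflammatory ILC2s, was higher, at 337 CPM (294 to 386) in 31 of 39 against 129 CPM, and so was Il13, at 398 CPM (350 to 450) in 25 of 39 against 145 CPM. Il5 was at 440 against 402 CPM and Areg at 1099 against 790 CPM.

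Cytotoxic effector genes other than those of the rule were found in few Pac1-/- Gzma/Nkg7 barcodes. Over all 41, Prf1, Ncr1 and Klrb1c were in 1 barcode each and Klre1 and Tyrobp in 2. In the 39, Prf1, Ncr1, Klrb1c, Klre1 and Tyrobp had 0 UMIs, which allows up to 4.75 CPM each, but 4 of the 39 held at least 1 of the 10 NK cell genes, against 88 of 7017 others, and Gzmb gave 3 UMIs in 1 barcode. Ifng, the type 1 cytokine, gave 12 UMIs in 2 barcodes, 10 of them in 1. Gzma itself gave 46 UMIs in 11 of the 39, at most 13 in 1 barcode, and Nkg7 and Ms4a4b gave 96 and 174 UMIs in 32 and 35. Leaving out the barcodes with NK cell genes sets much of this, and Gzma, Nkg7 and Ms4a4b are the genes of the rule. Cd4 and Cd8a were also at 0 UMIs. However, at least 1 of 6 T cell-defining genes was in 8 of the 39 (20.5%), against 6.17% of the others, and 2 barcodes held at least 2. At least 1 of the 5 narrower ILC3 genes was in 4 of the 39 (10.3%), against 0.456%. The 39 were also deeper, at a median of 9484 against 5558 UMIs, and the part of depth in these shares was not tested.

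The leading gene of the 39 was Ifi27l2a (chr12:103442167-103443680, minus strand). It gave 404 UMIs in 24 of 39 barcodes, 640 CPM (579 to 705) against 7.46 CPM, and the highest barcode held 75. After thinning it was in 15 of 39. Of the 9 interferon response genes measured, 5 were at least 2-fold higher, where 1.14% of all genes tested were so in the Pac1-/- library taken alone. They were Ifi27l2a, Isg15 (122 against 18.4 CPM, 18 of 39), Bst2 (196 against 47.8 CPM, 31 of 39), Irf7 (39.6 against 9.94 CPM) and Rtp4 (20.6 against 2.76 CPM). The list had a median log2 ratio of 1.26, beside -0.06 over all genes tested. Ifi27l2a was also in 15 of 22 Pac1-/- barcodes with B cell genes (68.2%) and in 7 of 15 with stromal genes (46.7%), against 1.07% of the other kept barcodes, so it was not particular to members.

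Of 7 circulating lymphocyte genes 2 were higher in the 39 (S1pr1 and Ccr7), with a median log2 ratio of 0.82. Batf was at 173 CPM (142 to 208) in 31 of 39 against 29.6 CPM, Ctla4 at 99.8 CPM in 14 of 39 against 1.31 CPM, and Cd28, the costimulatory receptor of T cells, at 63.4 against 10.1 CPM. Tcf7 was at 88.7 against 19.3 CPM. S1pr1, the receptor that lets lymphocytes leave tissues along sphingosine-1-phosphate, was at 53.9 CPM in 17 of 39 against 4.36 CPM. It had no UMI left in the Pac1-/- Gzma/Nkg7 barcodes that met the rule after thinning. The log2 ratio of S1pr1 there, -0.64, comes from the prior and does not show a lower level. Ccr7, a lymph node homing receptor, was at 23.8 against 4.60 CPM. Cd69, which opposes S1pr1 at the cell surface, was at 1245 against 1588 CPM.

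Other genes among those with the largest ratios had varied roles. Lgals1 (galectin-1) was at 1506 CPM (1412 to 1605) in 38 of 39 against 302 CPM, and Anxa2 (annexin A2) at 136 CPM in 22 of 39 against 12.7 CPM. Cd74, the MHC class II invariant chain, was at 227 CPM in 18 of 39 against 35.2 CPM, and H2-Aa at 80.8 CPM in 10 of 39 against 8.44 CPM. Ms4a6b, a relative of Ms4a4b, was at 125 CPM in 25 of 39 against 4.36 CPM. Ccl5, a chemokine of cytotoxic lymphocytes, was at 182 CPM in 15 of 39 against 32.9 CPM, with 57 of its 115 UMIs in 1 barcode. That barcode also held 4 UMIs of Cd3e and 19 of Cd3g. Of 7 γδ T cell genes none was higher and Tcrg-C1 was lower (0.446% of all genes were lower), at 12.7 against 52.6 CPM. Of 14 T cell genes, 2 were higher (Cd28 and Tcf7), and of 11 NK cell genes 3 were (Klrk1, Ccl5 and Itga2). Of 7 cell cycle genes 3 were higher, of which Mki67 gave 21 UMIs in 10 of 39 barcodes. Of the markers of other cells, none of 4 B cell and 2 myeloid genes was higher and 1 of 4 endothelial genes was (Pecam1, 60 UMIs in 26 of 39), and their part in the results was not tested.

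**Figure D4:**
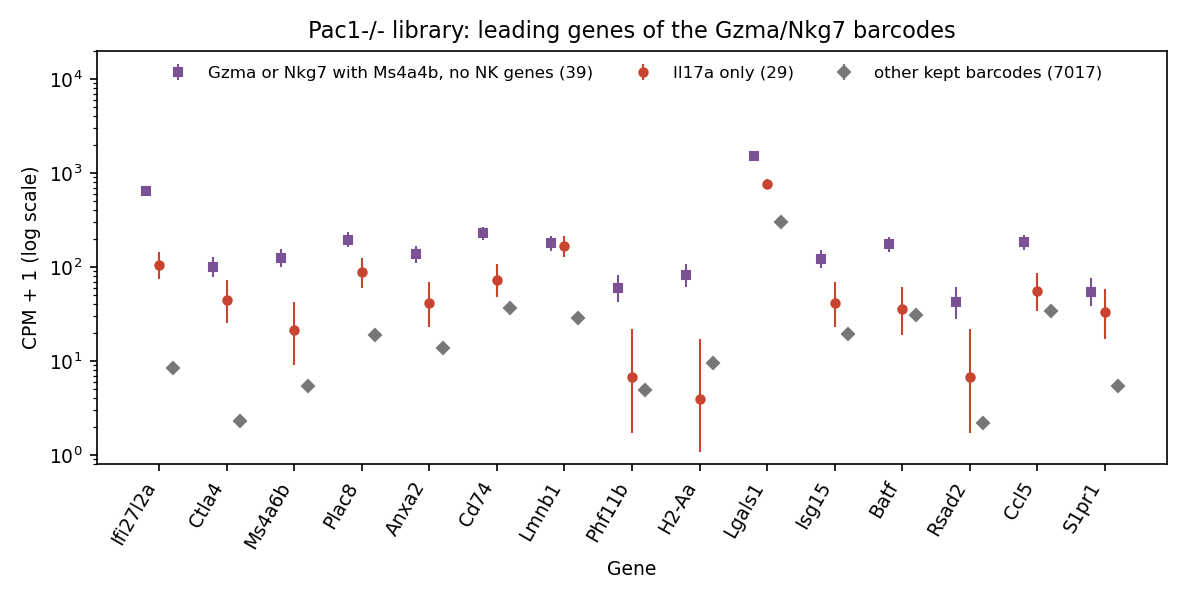
CPM + 1 (y axis, log scale) of the 15 genes with the largest ratios (x axis) in Pac1-/- barcodes. Squares are the 39 Gzma/Nkg7 barcodes with under 3 of 10 NK cell genes. Circles are the 29 barcodes that came in by Il17a and no other route, and diamonds the other 7017 kept barcodes. Bars are 95% exact Poisson intervals. Squares lie above diamonds for each gene, as the choice of genes fixes, and circles lie between them for Ifi27l2a, Ctla4 and Lgals1.

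Some of these genes were also higher in the 29 Pac1-/- barcodes that held Il17a and came in by no other route. There Ifi27l2a was at 105 CPM in 4 of 29, Ctla4 at 43.6 CPM in 5 of 29 and Lmnb1 at 166 CPM in 16 of 29, against 7.46, 1.31 and 27.4 CPM in the other barcodes. Some of the 29 held Nkg7 or Ms4a4b, but not both. Of the Ifi27l2a UMIs, 19, 11 and 3 lay in barcodes that also held Ms4a4b, and 3 lay in a barcode that did not. The 6 Pac1-/- barcodes that came in by both kinds of route had 37, 36, 8, 6, 2 and 1 UMIs of Il17a. Batf was in 6 of 6 at 135 CPM and Ifi27l2a in 5 of 6 at 231 CPM, and Il13 was at 508 CPM. Of these 6, the 2 with the fewest Il17a UMIs were the deepest, with 62616 and 76382 UMIs, and the first of these was a predicted doublet.

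Over all kept barcodes the genes of these routes were higher in the Pac1-/- library. Ms4a4b (chr19:11443553-11467055, plus strand) gave 32 UMIs in 16 WT barcodes and 306 in 94 Pac1-/- barcodes, a log2 ratio of 3.16 (2.63 to 3.73). Nkg7 (chr7:43437073-43438249, plus strand) gave 163 in 112 and 324 in 155, a log2 ratio of 0.90 (0.62 to 1.18). Gzma (chr13:113093825-113100981, minus strand) gave 42 in 3 and 106 in 13, and 1 barcode held 71.4% of the WT and 1 held 49.1% of the Pac1-/- UMIs. Ifi27l2a gave 66 UMIs in 31 barcodes and 868 in 103, a log2 ratio of 3.62. The median log2 ratio of all genes tested was 0.07.

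At the edge of the rule, the 28 WT and 11 Pac1-/- barcodes that came in by 1 UMI of Il17a alone had Gata3 at 960 and 1224 CPM and Il1rl1 at 981 and 967 CPM. Just outside it, Nkg7 without Ms4a4b was in 108 WT and 115 Pac1-/- barcodes, with Ifi27l2a at 9.53 and 2.03 CPM. Ms4a4b without Nkg7 was in 12 WT and 54 Pac1-/- barcodes, with Ifi27l2a at 9.89 and 376 CPM, the latter in 16 of 54 barcodes. The 54 were therefore nearer to the members in this gene than the 115. Gata3 was at 1116 CPM in the 54. The routes were also met by 3 WT and 3 Pac1-/- barcodes under 500 genes and by 1 Pac1-/- barcode above the mitochondrial limit.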

How the data were processed

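Lung ILC2s were profiled with a 10x Genomics Chromium 3′ kit (v3.1), 1 library per genotype. The deposited matrices hold raw UMI counts per gene and barcode, which the authors made with Cell Ranger against mm10. The version is 6.1.1 in the submitters' processing notes and 4.0.0 per the file headers. Cell Ranger's gene counts use strand. The WT file holds 10866 barcodes with 56182065 UMIs and the Pac1-/- file 9495 with 60283285. After the filter, medians were 4186.5 and 5577 UMIs.

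Counts were summed over barcodes and given as CPM. Intervals are exact (Poisson for levels, Clopper-Pearson for shares, conditional binomial for ratios) at 95%. Ratios for counts of genes used a prior of 10 CPM, a minimum of 20 UMIs per library and a 2-fold limit; other log2 ratios have no prior. Doublets were predicted per library from simulated pairs at 0.8% per 1000 barcodes (730 WT, 538 Pac1-/-) and kept. The members and gene lists were chosen with earlier results of these data known. Named genes were listed markers and those with the largest and smallest ratios of members, or of each route, over the other barcodes, ranked by the weaker library or, for Il17a, within the Pac1-/- library. The 15 leading genes of the 39 Pac1-/- barcodes, and genes named beside them, were added after values were seen. The code was tested on simulated data. Alternatives changed the UMIs required, depth, doublets, gene filters, scaling, cell weights and prior. Some listed markers are not reported here. The work was done in Python 3.11.15 with scikit-learn 1.9.0, matplotlib 3.10.9, pandas 2.3.3, scipy 1.17.1 and numpy 2.4.6.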

Additional observations from a re-analysis of the deposited data

Results flagged for a closer look

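Of 206 listed or named genes compared, the log2 ratio of Il17a barcodes over the other kept barcodes had intervals on opposite sides of 0 in the WT and Pac1-/- libraries for 3, and the difference between the libraries was not tested. For Ptgs2, the inducible cyclooxygenase, it was -0.81 in the WT and 2.72 in the Pac1-/- library, where 1 barcode held 37 of 84 UMIs. For Bcl11b, a transcription factor gene of T cells and ILC2s, it was 0.25 and -0.30, and for Cd69, an activation and tissue residency marker, it was 0.30 and -0.34. In barcodes that failed the filters, Nkg7 gave 4 UMIs in the WT library and 10 in the Pac1-/- library. Il17a gave 3 and 4, Ms4a4b 0 and 6, and Gzma 0 and 1.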

How the results depend on the processing

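No paired analysis was possible because each genotype had 1 library. Members with at least 2 UMIs of each rule gene were 0.322% (WT) and 0.649% (Pac1-/-) of kept barcodes, and after thinning to 1500 UMIs 0.223% and 0.396%. The 1 gene at least 2-fold higher in members of both libraries became 7 with 2 UMIs required, 152 of 10127 after thinning, 4 without predicted doublets, 2 relative to the median ratio, 16 with equal weight per cell, 42 with a prior of 1 CPM and 0 without barcodes with NK cell genes. The 3 lower genes became 1103 after thinning, 5 with equal weight and 157 with a prior of 1 CPM. Thinning left 17 and 26 members, where a gene with no UMI left can be called lower through the prior. The median log2 ratio of all genes was then -0.51 (WT) and -0.40 (Pac1-/-), against -0.04 in each library before. Among listed genes, ILC2 went from 0 to 1 higher with 2 UMIs required, thinning, doublets removed or equal weight; ILC3 from 0 to 1 with equal weight or a prior of 1 CPM; T cell from 0 to 1 with thinning or equal weight, and from 0 to 1 lower with thinning. NK cell genes went from 1 to 2 with 2 UMIs required, to 3 with thinning, equal weight or a prior of 1 CPM, and to 0 without barcodes with NK cell genes. The log2 ratio of Il17a between libraries was 0.63 without the highest barcode and 1.01 to 1.17 in the other alternatives. Of 83 named ratios, 57 moved by more than the half-width of their counting interval after thinning, 42 with equal weight per cell, 32 with a prior of 1 CPM, 25 with 2 UMIs required, 23 without the highest barcode, 9 without predicted doublets and none with 1000 genes required or relative to the median ratio. Besides these, ratios of at least 2-fold that changed sign after thinning were, in Il17a barcodes, Tnfsf8 in WT (-1.78) and Adm (-1.30), Irf4 (-0.70), Sox4 (-1.37) and Rsad2 (-0.24) in Pac1-/-, and, in Pac1-/- Gzma/Nkg7 barcodes, S1pr1 (-0.64) and Phf11b (-0.48). Each of these negative values after thinning stands for a gene with no UMI left in its set, so it does not show a lower level. Tnfsf8 in WT was -0.28 without predicted doublets, and Stmn1 in Pac1-/- was -0.017 without its highest barcode. The cause was not tested. Leaving out single barcodes or barcodes with NK cell genes was chosen after seeing the data. Of 44 named ratios of at least 2-fold, 33 stayed so without the gene's highest barcode. Depth limits genes with a few UMIs in these sets, and 1 UMI in a shallow barcode can be missed.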
